A study of Mus musculus with 4 samples.

Results

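The cardiac transcription factor genes *Tbx2*, *Tbx3*, *Tbx5*, *Tbx20*, *Gata4*, *Gata6*, *Nkx2-5*, *Mef2c* and *Irx4* were followed in sorted cells of the mouse embryonic kidney with and without *Eya1*. They were taken by symbol, with earlier results of these data known, as 9 of the 52636 genes on which reads were counted, and all 9 symbols matched a single gene. The cells were tdTomato+ cells of kidneys at E12.5 to E12.75, sorted about 48 h after tamoxifen was started, and the background of the mice was mixed C57BL/6J and 129/Sv. Control embryos carried the Eya1 CreER allele and the R26-tdTomato reporter. *Eya1*cKO embryos carried the same allele and reporter together with Eya1 fl/fl, and tamoxifen was given to both genotypes. Each genotype had 2 libraries of 5000 cells (control 1 and 2, *Eya1*cKO 1 and 2). CreER was expressed from the *Eya1* locus, so both genotypes carried the Eya1 CreER allele and the sorted cells were those that had expressed *Eya1* and their descendants. Kidneys of several embryos were pooled before sorting, and the libraries of a genotype were portions of cells sorted at the same time, so the *P* values measure the spread between such portions, which may be technical.

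T-box proteins bind DNA through a shared T-box domain. In the heart, Tbx5 and Tbx20 act with Gata4 and Nkx2-5 on genes of the working muscle, whereas Tbx2 and Tbx3 are repressors that keep such genes silent in the atrioventricular canal and, for Tbx3, the conduction system. Gata4 and Gata6 are zinc finger activators, Mef2c is a MADS box factor of muscle, endothelium and neural crest, and Irx4 is a homeodomain factor of the ventricle. None of these genes is restricted to the heart. Tbx2 and Tbx3 are known in the mesenchyme around the ureter, and Gata4 and Gata6 in the developing gonad and adrenal gland.

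The promoters of *Tbx20*, the member with the largest difference between the genotypes, and of *Nkx2-5*, the member without a read, are shown from 250 bases before to 50 bases after the transcription start, as RefSeq gives it on GRCm38.p6. Of the 9 members, 4 have such a window (*Tbx20*, *Nkx2-5*, *Mef2c* and *Irx4*). Capitals mark matches to the GC box GGGCGG on either strand, a motif bound by Sp1-type factors, and the sequences are written 5′ to 3′ on the strand of the gene.
Tbx20 promoter, chr9:24774254-24774553, minus strand: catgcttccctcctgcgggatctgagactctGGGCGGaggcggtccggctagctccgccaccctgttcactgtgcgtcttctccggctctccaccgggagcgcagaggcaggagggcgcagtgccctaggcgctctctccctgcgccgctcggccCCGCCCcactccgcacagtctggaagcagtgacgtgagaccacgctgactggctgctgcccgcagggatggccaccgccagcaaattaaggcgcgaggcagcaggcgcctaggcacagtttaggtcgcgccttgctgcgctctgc
Nkx2-5 promoter, chr17:26841516-26841815, minus strand: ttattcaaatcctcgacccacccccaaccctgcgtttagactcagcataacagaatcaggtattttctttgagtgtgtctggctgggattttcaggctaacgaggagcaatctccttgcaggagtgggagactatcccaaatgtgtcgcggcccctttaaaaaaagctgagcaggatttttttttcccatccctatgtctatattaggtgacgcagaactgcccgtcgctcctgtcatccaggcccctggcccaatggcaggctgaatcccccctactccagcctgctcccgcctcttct
The *Tbx20* window holds 68.3% G and C, 26 CG pairs and 2 GC boxes, which begin at -219 and -95 from the start. The *Nkx2-5* window holds 51.7% G and C, 9 CG pairs and no match to any motif searched. Over the 32851 RefSeq promoter windows of the same length the medians were 52.7% G and C and 7 CG pairs, and 35.7% held a GC box. The other motifs searched on both strands were the T-box motif GGTGTG (in 19.0% of all windows), the GATA motif AGATAA (11.2%), the Nkx2 motif AAGTG (46.4%) and RE1, the site of the repressor REST (0.0639%), and no match of one motif overlapped a match of another in these windows. None of these 4 motifs was found in the *Tbx20* window. *Irx4* has 2 GC boxes in its window, and the 3 windows of *Mef2c* hold matches to the T-box motif, the Nkx2 motif or the GC box. These matches are descriptions of sequence only.

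Between 35411905 and 37999342 reads were counted on genes in the control libraries and 22239293 and 17457452 in *Eya1*cKO 1 and 2. *Eya1*, the deleted gene, had 6612 and 6420 reads in the controls and 377 and 219 in *Eya1*cKO (log2 fold change -3.60, standard error or SE 0.18, edgeR adjusted *P* = 0.00019). The counts sum all exons and do not separate intact from deleted transcripts. Levels are given as CPM (counts scaled to a common library size with edgeR's TMM factors), as mean ± SD over n = 2 libraries, and fold changes on the log2 scale compare *Eya1*cKO with control in edgeR's quasi-likelihood test over 19041 genes, with a call at an adjusted *P* under 0.05. The *Eya1*cKO libraries were the shallower ones and the less alike. The median gene differed between the libraries of a genotype by 0.18 log2 units in the controls and by 0.55 in *Eya1*cKO. Reads that fell on no gene made up 12.9% and 13.9% of those recorded in the controls and 20.9% and 22.7% in *Eya1*cKO. Depth was addressed by thinning all libraries to equal depth, and the part of this spread and of the reads off genes in the results was not tested. The limit of detection was taken as 3 counts, which corresponded to 0.0801 to 0.171 CPM per library, and this limit and the Poisson intervals cover counting error only.

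*Tbx2*, which encodes a repressor and lies on chromosome 11 from 85832551 to 85841948 of GRCm38 (plus strand), had the highest level of the members and rose modestly in *Eya1*cKO. Its reads numbered 4974 and 5029 in control 1 and 2, against 4940 and 3307 in *Eya1*cKO 1 and 2, or 142.4 and 134.3 against 218.6 and 188.5 CPM. The *Eya1*cKO libraries both lay above the controls. The mean rose from 138 ± 5.75 to 204 ± 21.3 CPM (log2 fold change 0.56, SE 0.11, edgeR adjusted *P* = 0.023). Without control 1 the adjusted *P* was 0.47 and without control 2 it was 0.59, and the call was also lost without the low-count filter (0.055), while over all alternatives the value ran from 1.0e-05 to 0.59.

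*Tbx3*, the closest relative of *Tbx2* and also a repressor, lies on chromosome 5 from 119670669 to 119684724 (plus strand). It had 1382 and 1465 reads in the controls and 2180 and 979 in *Eya1*cKO 1 and 2, or 39.6 and 39.1 against 96.5 and 55.8 CPM. Both *Eya1*cKO libraries again lay above the controls, but they differed from each other by 1.73-fold, and the controls by 1.01-fold. The means were 39.4 ± 0.319 and 76.1 ± 28.8 CPM, and this difference did not reach the threshold (log2 fold change 0.98, SE 0.25, edgeR adjusted *P* = 0.057). It passed without *Eya1*cKO 1 (log2 fold change 0.49, adjusted *P* = 0.017) and without *Eya1*cKO 2 (1.28, 6.6e-07), and with DESeq2's Wald test (0.0098) and where every library had to hold at least 10 counts (0.038), and over all alternatives the adjusted *P* ran up to 0.62. *Tbx3os1*, an antisense gene that shares 1.74% of the exonic length of *Tbx3*, had 141 and 201 reads in the controls and 527 and 163 in *Eya1*cKO, and did not pass either (log2 fold change 1.86, SE 0.55, edgeR adjusted *P* = 0.083). The strand setting of the counting is not given in the sources used here, so reads of the shared stretch cannot be assigned with certainty.

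**Figure D1:**
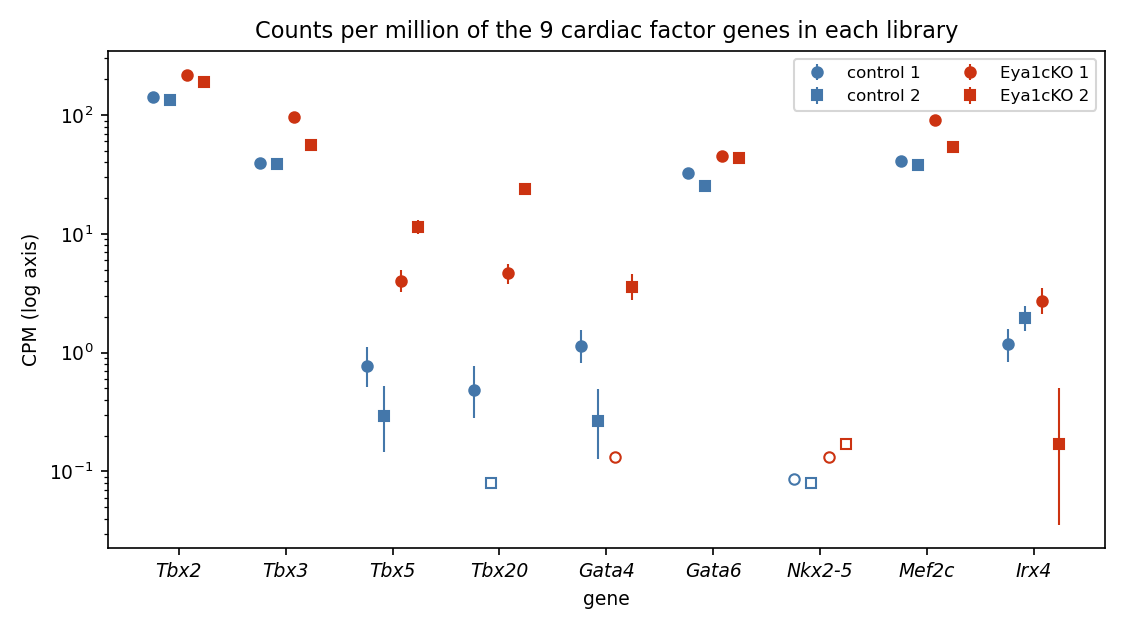
Level of each of the 9 members in each of the 4 libraries, in CPM on a log axis, with bars for the 95% Poisson interval of the count and open symbols, drawn at the limit of 3 reads, for libraries with no read. *Tbx2* stands between 134.3 and 218.6 CPM in every library, the *Eya1*cKO symbols of *Tbx5* and *Tbx20* lie above their controls, and those of *Gata4* and *Irx4* lie on both sides of them.

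*Tbx5* and *Tbx20*, the activators of heart muscle genes among the T-box members, were nearly silent in the controls and rose in *Eya1*cKO, though they stayed low. *Tbx5*, on chromosome 5 from 119832668 to 119885219 (plus strand), was counted 27 and 11 times in control 1 and 2, against 91 and 201 times in *Eya1*cKO 1 and 2, or 0.773 and 0.294 against 4.03 and 11.5 CPM. Both *Eya1*cKO libraries were above the controls, and the lowest of them was 5.21-fold above the highest control. The mean rose from 0.534 ± 0.339 to 7.74 ± 5.25 CPM (log2 fold change 3.79, SE 0.95, edgeR adjusted *P* = 0.048). *Tbx5* lies 147944 bases beyond *Tbx3* on the same chromosome.

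*Tbx20*, on chromosome 9 from 24718138 to 24774303 (minus strand), had 17 and 0 reads in the controls and 105 and 421 in *Eya1*cKO 1 and 2, or 0.487 CPM in control 1 and 4.65 and 24 CPM in *Eya1*cKO. No overlap was seen here either, but *Eya1*cKO 2 stood 5.17-fold above *Eya1*cKO 1, in contrast to *Tbx3*, for which *Eya1*cKO 1 was the higher library. From 0.243 ± 0.344 to 14.3 ± 13.7 CPM, the log2 fold change was 5.79 (SE 1.37, edgeR adjusted *P* = 0.034), a value that rests on the 17 reads of control 1. The lowest ratio between single libraries, *Eya1*cKO 1 over control 1, was 9.55. *Tbx5* and *Tbx20* both lost the call without control 1 (adjusted *P* = 0.53 and 0.50) or control 2 (0.64 and 0.60), without the low-count filter (0.088 and 0.065), with edgeR's legacy method (0.086 and 0.11) and after thinning to equal depth (0.059 and 0.077), while the log2 fold changes stayed at 3.85 and 5.87 with the legacy method and at 3.97 and 5.73 after thinning. Without control 1 the log2 fold change of *Tbx20* was 11.41, against a control at 0, and without *Eya1*cKO 2 it was 4.27. The adjusted *P* of *Tbx5* ran from 4.7e-06 to 0.64 over the alternatives and that of *Tbx20* from 1.4e-08 to 0.60. The study itself named *Tbx2* and *Tbx5* as upregulated from these libraries, and also *Hand1*, *Hand2* and *Irx1*, which are described below. The direction of these genes is therefore no independent evidence.

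Because genes differ in length, levels were compared between genes only as CPM per kilobase of exon. In the controls the order was *Tbx2* (38.2 ± 1.59), *Tbx3* (5.94 ± 0.0481), *Gata6* (4.42 ± 0.774), *Mef2c* (2.52 ± 0.144), *Irx4* (0.599 ± 0.210), *Gata4* (0.181 ± 0.159), *Tbx5* (0.114 ± 0.0725) and *Tbx20* (0.0203 ± 0.0287 CPM per kilobase). Of these neighbours, only the libraries of *Gata4* and *Tbx5* overlapped. In *Eya1*cKO *Tbx2* stood at 56.1 ± 5.87, *Tbx3* at 11.5 ± 4.34, *Gata6* at 6.79 ± 0.210 and *Mef2c* at 4.65 ± 1.68, with no overlap between neighbours, and *Tbx5* and *Tbx20* moved ahead of *Irx4* and *Gata4* with 1.66 ± 1.12 and 1.19 ± 1.14 CPM per kilobase. The libraries of these last 4 genes overlapped one another in *Eya1*cKO, so their order there is not set beyond the spread.

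**Figure D2:**
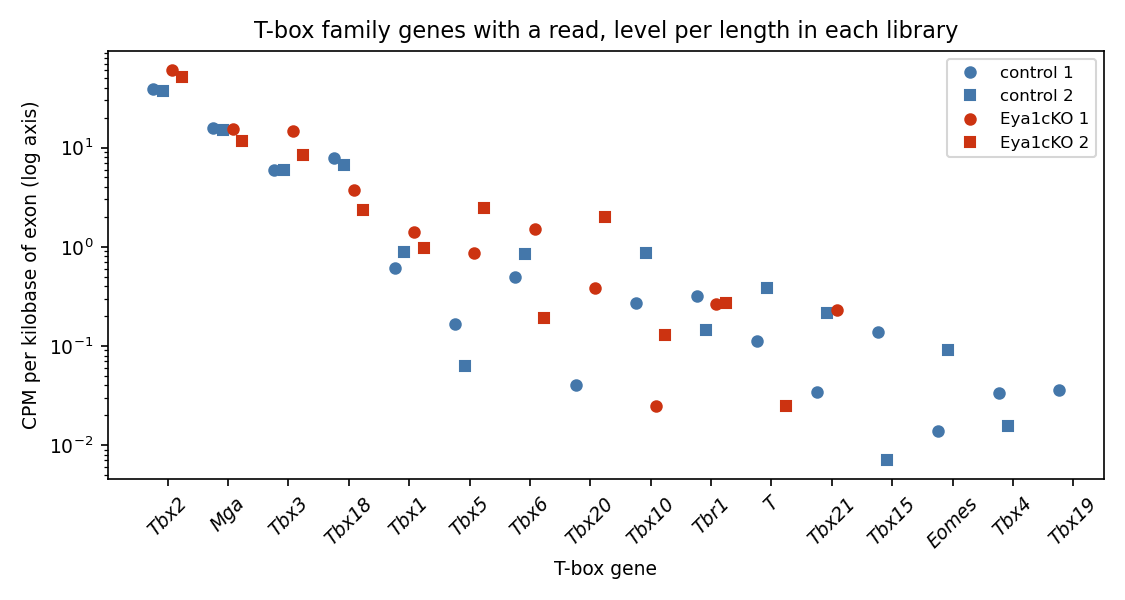
Level per length, in CPM per kilobase of exon on a log axis, of the T-box genes in each library, with no symbol for a library without a read. *Tbx2* is the highest of the family in every library, and *Tbx18* is lower in *Eya1*cKO while *Tbx5* and *Tbx20* are higher, from below 1 CPM per kilobase in the controls.

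The makeup of the T-box family differed between the libraries of the genotypes. Summed over its 17 genes the family had 71.29 and 68.18 CPM per kilobase in the controls, against 98.66 and 80.58 in *Eya1*cKO. *Tbx2* took 54.7 ± 0.546% of this sum in the controls and 62.8 ± 2.41% in *Eya1*cKO, and *Tbx3* took 8.52 ± 0.2% and 12.6 ± 3.05%. *Tbx18*, a gene of the mesenchyme around the ureter and of the sinus node and epicardium of the heart, took 10.5 ± 0.858% and 3.38 ± 0.618%. The dual T-box and bHLH factor gene *Mga* took 22.1 ± 0.190% and 15.1 ± 0.685%, although its own level overlapped between the genotypes, at 15.88 and 15.0 against 15.36 and 11.76 CPM per kilobase. *Tbx5* made up 0.162 ± 0.0989% and 1.96 ± 1.53%, and *Tbx20* 0.0285 ± 0.0403% and 1.44 ± 1.48%. The libraries of the genotypes did not overlap in any of these shares, which were not tested. They did overlap in the shares of *Tbx1*, *Tbx6*, *Tbx21* and *Tbr1*. Shares of the same sum are not independent of each other.

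Of the 17 family genes 11 were tested, of which 3 rose (the members *Tbx2*, *Tbx5* and *Tbx20*) and *Tbx18* fell, beside 9.56% of all genes tested that were called in either direction, with a median log2 fold change of 0.48 beside 0.016 over all genes. *Tbx18* had 1300 and 1187 reads in the controls and 401 and 196 in *Eya1*cKO, and its level fell from 34.5 ± 3.91 to 14.5 ± 4.65 CPM (log2 fold change -1.21, SE 0.29, edgeR adjusted *P* = 0.047). *Tbx18* no longer passed with libraries scaled to their totals alone (0.053), with the legacy method, after thinning to equal depth or with no filter on low counts, and the alternatives for it ran from 6.4e-05 to 0.60 in adjusted *P*, with the highest values where control 1 or control 2 was left out. *Tbx1*, *Tbx6*, *Tbx10*, *Tbx21*, *Tbr1* and *Mga* did not pass, with log2 fold changes from -3.01 to 0.69. The 6 genes that were not tested, *Tbx4*, *Tbx15*, *Tbx19*, *Tbx22*, *T* and *Eomes*, had from 0 to 33 reads per control library and 0 or 1 per *Eya1*cKO library. *Tbx4*, which lies 44474 bases from *Tbx2*, had 4, 2, 0 and 0 reads.

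Neither GATA member passed the test. *Gata6*, on chromosome 18 from 11052064 to 11085635 (plus strand), had 1129 and 944 reads in the controls, against 1020 and 758 in *Eya1*cKO, or 32.3 and 25.2 against 45.1 and 43.2 CPM. The *Eya1*cKO libraries were nearly equal and both above the controls, which differed more from each other. The means were 28.8 ± 5.03 and 44.2 ± 1.37 CPM, and the log2 fold change was 0.63 (SE 0.21, edgeR adjusted *P* = 0.11). It passed without *Eya1*cKO 1 (0.58, adjusted *P* = 0.025) and without *Eya1*cKO 2 (0.64, 0.010), and the adjusted *P* ran up to 0.70 over the alternatives. *1010001N08Rik*, on the opposite strand, shares 1.43% of the exonic length of *Gata6* and had 19 and 15 reads in the controls, against 100 and 4 in *Eya1*cKO 1 and 2, so it was high in a single library.

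*Gata4*, on chromosome 14 from 63198922 to 63271692 (minus strand), had 40 and 10 reads in the controls and 0 and 63 in *Eya1*cKO 1 and 2. The *Eya1*cKO libraries thus stood at both ends, with 3.59 CPM in *Eya1*cKO 2 and none in *Eya1*cKO 1, where the limit of 3 counts is 0.133 CPM. The means of 0.706 ± 0.621 and 1.80 ± 2.54 CPM had a 2.54-fold ratio, and the log2 fold change fitted by edgeR was 1.18 (SE 1.37, edgeR adjusted *P* = 0.62), which turned to -7.46 without *Eya1*cKO 2 (against a library at 0) and passed, at 2.36, without *Eya1*cKO 1 (adjusted *P* = 0.023, within a range of 0.023 to 0.95). Among the 1371 genes whose summed control reads were within 20% of those of *Gata4*, 30.3% had no read in *Eya1*cKO 1 and 37.6% had none in *Eya1*cKO 2. *Zfpm2*, which encodes the GATA cofactor Fog2, had 33.6 ± 4.81 and 45.6 ± 1.64 CPM (log2 fold change 0.44, SE 0.20, edgeR adjusted *P* = 0.19).

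*Nkx2-5*, the homeodomain factor of heart muscle progenitors, on chromosome 17 from 26838664 to 26845009 (minus strand), had 0 reads in all 4 libraries and was not tested. The limit of 3 counts is 0.0801 or 0.0859 CPM in a control library and 0.133 or 0.171 CPM in an *Eya1*cKO library, and expression below these levels may have gone undetected. No other gene of the Nkx2 family passed the low-count filter, and the highest count among them was 17, for *Nkx2-2* in control 2.

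*Mef2c*, on chromosome 13 from 83504034 to 83667080 (plus strand), had 1436 and 1420 reads in the controls and 2073 and 953 in *Eya1*cKO 1 and 2, or 41.1 and 37.9 against 91.7 and 54.3 CPM. As with *Tbx3*, both *Eya1*cKO libraries were above close controls and *Eya1*cKO 1 was the higher of them. The means were 39.5 ± 2.26 and 73.0 ± 26.5 CPM, and this difference did not reach the threshold (log2 fold change 0.92, SE 0.25, edgeR adjusted *P* = 0.065). It passed without *Eya1*cKO 1 (0.45, adjusted *P* = 0.032) and without *Eya1*cKO 2 (1.20, 1.9e-06), and with DESeq2's Wald test (0.017) and where every library had to hold at least 10 counts (0.045), and ran up to 0.66 in adjusted *P* over the alternatives.

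*Irx4*, on the same chromosome from 73260479 to 73269608 (plus strand), had 41 and 73 reads in the controls and 62 and 3 in *Eya1*cKO 1 and 2, or 1.17 and 1.95 against 2.74 and 0.171 CPM. *Eya1*cKO 1 was the highest and *Eya1*cKO 2 the lowest of the libraries, the reverse of the order seen for *Gata4*. The means of 1.56 ± 0.548 and 1.46 ± 1.82 CPM did not differ beyond this spread (fitted log2 fold change 0.04, opposite in sign to the difference of the means, SE 0.97, edgeR adjusted *P* = 0.98). Without *Eya1*cKO 1 the log2 fold change was -3.18 and without *Eya1*cKO 2 it was 0.78 (adjusted *P* = 0.13 and 0.35, of a range from 0.13 to 0.998), so no direction can be given. Of the 1088 genes with control reads within 20% of those of *Irx4*, 12.2% and 14.1% had no read in *Eya1*cKO 1 and 2.

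**Figure D3:**
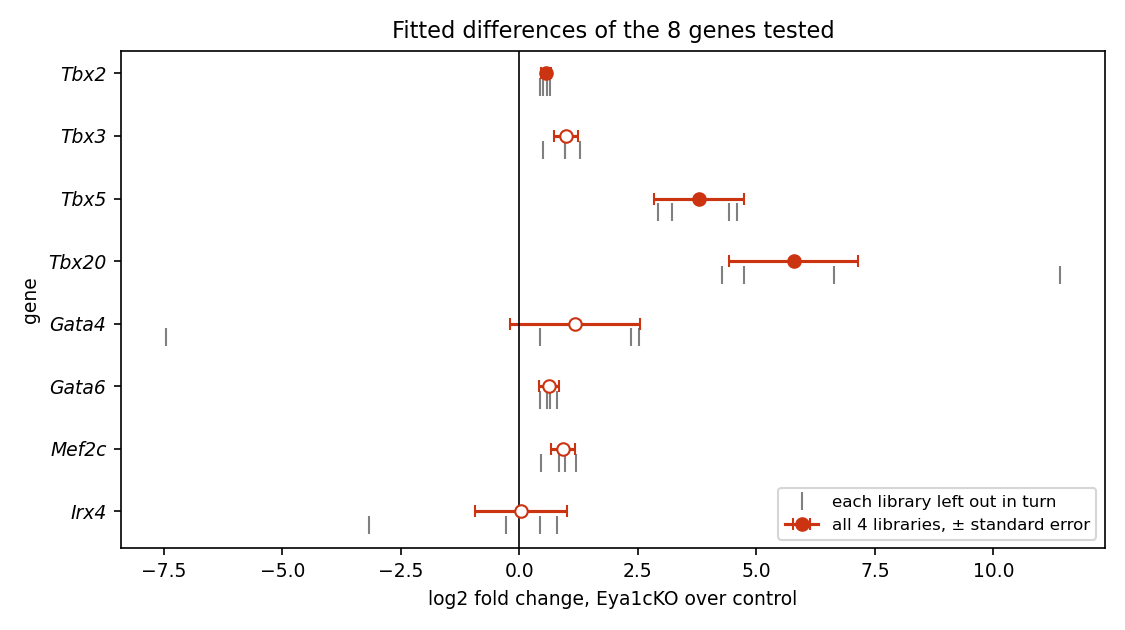
Log2 fold change, *Eya1*cKO over control, of the 8 members tested, with bars of 1 standard error, filled symbols for genes called and grey ticks for the values with each library omitted. *Tbx20* and *Tbx5* have the largest values, 5.79 and 3.79, and the widest bars beside *Gata4* and *Irx4*, whereas the bar of *Tbx2* is the shortest, and the ticks lie on both sides of 0 only for *Gata4* and *Irx4*.

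Over the 9 members, 8 were tested, 3 of which rose and none of which fell at an adjusted *P* under 0.05, beside 9.56% of all genes called in either direction, 5.15% called higher and 4.41% called lower. At an unadjusted *P* under 0.05, 6 were higher and none lower, beside 14.2% of all genes called higher in this way, and the member count is of genes that passed the filter on low counts. Both *Eya1*cKO libraries lay above both controls in 6 of the 8 members and below them in none, beside 25.3% and 30.0% of all genes tested. DESeq2's Wald test, which called 15.9% of all genes it tested, called 5 members, all higher (*Tbx2*, *Tbx3*, *Tbx5*, *Tbx20* and *Mef2c*). Without control 1 or control 2 no member passed and 23 genes passed in all, while 7 members and 7414 genes passed without *Eya1*cKO 1 and 6 members and 7925 genes without *Eya1*cKO 2. With a library left out, the spread is estimated from the remaining pair of libraries alone.

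Of 23 GATA, Mef2, Irx and Nkx2 genes, 14 were tested, of which 2 rose and none fell (14.3% called, beside 9.56% of all genes, with 1 lower at an unadjusted *P* under 0.05 and none lower in DESeq2), with a median log2 fold change of 0.15. *Irx1*, a homeodomain gene of the forming nephron tubule, had 300 and 353 reads in the controls and 672 and 351 in *Eya1*cKO, and rose from 9.01 ± 0.591 to 24.9 ± 6.88 CPM (log2 fold change 1.49, SE 0.34, edgeR adjusted *P* = 0.039). *Mef2d* rose from 101 ± 4.15 to 137 ± 0.572 CPM (0.43, SE 0.11), with an adjusted *P* of 0.04996 that stood at the threshold. *Mef2d* did not pass with robust quasi-likelihood. Neither passed without the low-count filter, with the legacy method, after thinning to equal depth, or without control 1 or control 2, where the adjusted *P* reached 0.58 for *Irx1* and 0.70 for *Mef2d*. *Gata2* and *Gata3* did not pass (log2 fold changes -0.13 and -0.60).

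Among 31 other regulators and signals of heart development, 27 were tested, of which 3 rose and 4 fell (25.9% called, beside 9.56% of all genes), with a median log2 fold change of 0.054. *Hand2*, which acts in the right ventricle and in sympathetic neurons, had 20 and 2 reads in the controls and 610 and 618 in *Eya1*cKO (log2 fold change 6.64, SE 0.63, edgeR adjusted *P* = 0.0011). *Hand1* had 20 and 7 reads in the controls and 546 and 196 in *Eya1*cKO (5.61, SE 0.81, adjusted *P* = 0.0063). *Nrg1*, the ligand of Erbb receptors, rose from 4.11 ± 0.227 to 20.5 ± 1.29 CPM (2.32, SE 0.38, adjusted *P* = 0.014). Those that fell were *Tbx18*, the ligand gene *Bmp2* (-1.65, SE 0.21, adjusted *P* = 0.0060), the Notch target *Hey1* (-1.12, SE 0.20, adjusted *P* = 0.017) and *Srf*, a general factor of muscle and cytoskeletal genes (-0.57, SE 0.08, adjusted *P* = 0.0092, all in edgeR). None of the 31 was called without control 1 or control 2, where the adjusted *P* reached 0.18 for *Hand2*, 0.34 for *Hand1*, 0.42 for *Nrg1*, 0.29 for *Bmp2*, 0.51 for *Hey1* and 0.37 for *Srf*.

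Of 25 sarcomere, channel and conduction genes of heart muscle, among them known targets of these factors, 17 were tested, 1 rose and 1 fell (11.8% called, beside 9.56% of all genes), and the median log2 fold change was -0.16. *Hcn4*, the pacemaker channel gene, rose from 17.3 ± 0.775 to 54.5 ± 7.63 CPM (log2 fold change 1.67, SE 0.21, edgeR adjusted *P* = 0.0063). *Gja1*, which encodes connexin 43 and is a known target of repression by Tbx2, fell from 200.2 ± 3.73 to 92.9 ± 35.8 CPM (-1.08, SE 0.20, adjusted *P* = 0.023). Both lost the call without control 1 or control 2, where the adjusted *P* reached 0.31 and 0.39. *Gja1* also lost the call without the low-count filter and with the legacy method. *Atp2a2*, the calcium pump gene with the most reads of the list, had a log2 fold change of -0.16 and did not pass. *Nppa*, a target of Tbx5, had 5, 1, 0 and 0 reads and was not tested.

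**Figure D4:**
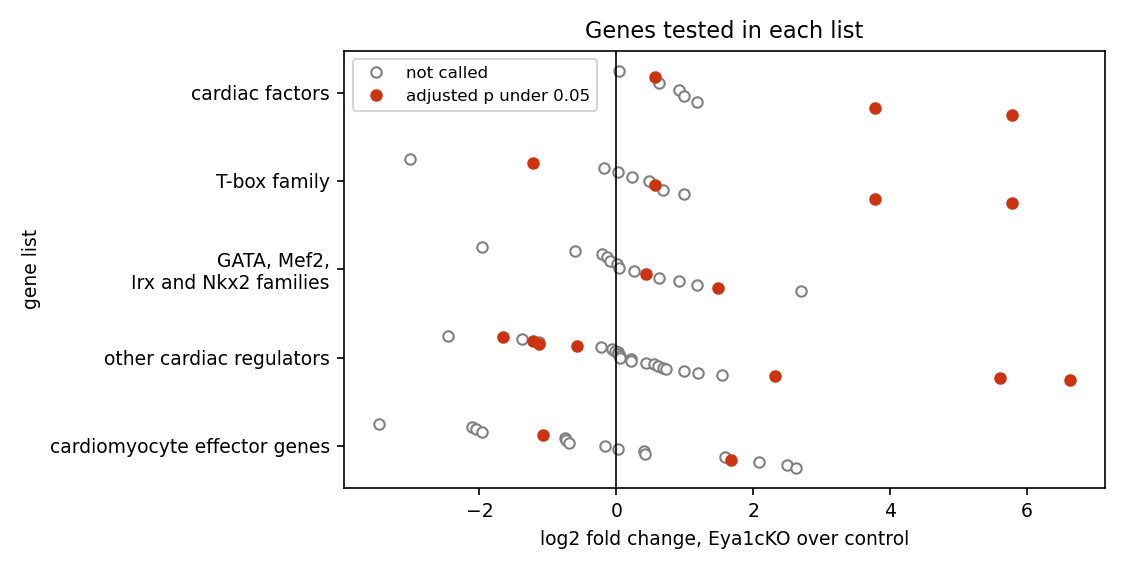
Log2 fold change of each tested gene, filled where called, for the members (top row, cardiac factors), the T-box family, the GATA, Mef2, Irx and Nkx2 families, the other cardiac regulators and the cardiomyocyte effector genes. The medians of the last 4 lists are 0.48, 0.15, 0.054 and -0.16, and the genes called are spread over both directions in these lists except for the GATA, Mef2, Irx and Nkx2 families.

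The samples are bulk RNA of sorted cells, in which more cells of a type and more RNA per cell cannot be told apart. Cardiomyocyte markers were low in both genotypes. Of 10 markers 6 were tested and none passed, by edgeR or by DESeq2, with 1 higher and 1 lower at an unadjusted *P* under 0.05, and their sum was 15.2 and 22.7 CPM in the controls, against 19.7 and 10.7 CPM in *Eya1*cKO. *Actc1*, the marker with the most reads, had 242 and 422 reads in the controls, against 100 and 119 in *Eya1*cKO (log2 fold change -0.75, edgeR adjusted *P* = 0.39). *Tnni3* had 147 and 238 reads, against 110 and 19 (-0.73, edgeR adjusted *P* = 0.54). *Myh7*, the higher one at an unadjusted *P*, had 1 and 52 reads, against 120 and 46. Both its *Eya1*cKO libraries lay above the controls in CPM (log2 fold change 2.49, edgeR adjusted *P* = 0.16). *Tnnt2*, the lower one, had 44 and 39 reads, against 4 and 0 (log2 fold change -3.47, edgeR adjusted *P* = 0.15). *Myl2*, *Mybpc3* and *Nppa* had at most 8 reads in any library, and 3 and 5 of the 10 markers were at 0 in *Eya1*cKO 1 and 2.

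Markers of several other cell types moved with the genotype, and their part in the results of the members was not tested. All 10 adrenal cortex markers rose, and their sum went from 41.1 and 34.5 CPM in the controls to 828 and 804 in *Eya1*cKO. Of 10 chromaffin and sympathetic markers 8 rose, with sums of 87.8 and 101 against 607 and 620 CPM, and *Gata2* and *Gata3*, which did not pass, were the others. The sum of the 8 that rose was 6.70 and 11.9 CPM in the controls, against 527 and 562 CPM. Of 8 markers of bridge cells and Schwann precursors 6 were tested and 2 rose, with sums of 29.5 and 28.5 against 62.8 and 52.5 CPM. All 8 endothelial markers rose, from 660 and 676 to 1185 and 1228 CPM in sum, as did all 7 podocyte markers, from 514 and 523 to 2390 and 2392 CPM. All 8 nephron progenitor markers, the cells that the sort was aimed at, were present in the controls at a sum of 1586 and 1596 CPM and fell to 352 and 335. The sums of these lists differed less between *Eya1*cKO 1 and 2 than the CPM of *Tbx3*, *Tbx5*, *Tbx20*, *Gata4*, *Mef2c* and *Irx4* did.

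Further lists hold cells known to express some of the members. Of 8 smooth muscle and periureteric markers, *Acta2* rose and *Tbx18* and *Sox9* fell, with sums of 184 and 180.5 CPM in the controls, against 132.5 and 135 CPM. *Cnn1* had 14 and 20 reads and *Actg2* 13 and 20 in the controls, both were at 0 in the *Eya1*cKO libraries, and neither passed (edgeR adjusted *P* = 0.11 for each). Of 7 renal stroma markers *Foxd1*, *Pdgfrb* and *Lum* rose and *Meis2* fell, with sums between 1271 and 1441 CPM over the 4 libraries. Of 6 coelomic and gonadal markers 5 were tested and none passed, nor did any at an unadjusted *P* under 0.05 or in DESeq2, and their sums lay between 57.0 and 75.6 CPM.

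**Figure D5:**
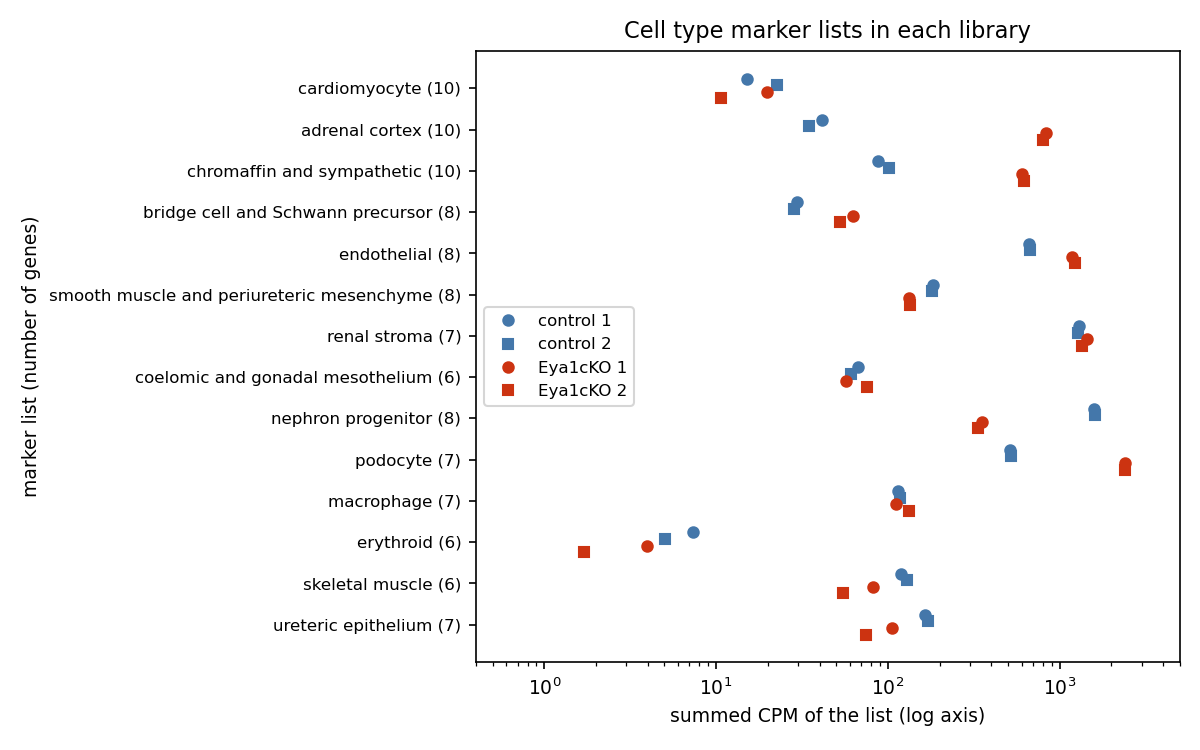
Summed level of each cell type marker list in each library, in CPM on a log axis, with the number of genes in brackets. The adrenal cortex, chromaffin, endothelial and podocyte lists are higher and the nephron progenitor list is lower in both *Eya1*cKO libraries, while the cardiomyocyte list lies between 10.7 and 22.7 CPM with the genotypes overlapping.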

How the data were processed

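RNA-seq was performed by the authors on total RNA of sorted tdTomato+ cells, with mRNA purification and a stranded, random-primed kit. The deposited values are raw read counts per gene, which the authors made with HISAT2 (mm10) and HTSeq on Ensembl genes and tested with DESeq2, as the study's methods and the submitters' processing notes state. Labels and methods differ in the number of kidneys and females. The members and lists were chosen with earlier results of these data known.

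Counts were tested with edgeR 4.0.16 in R 4.3.3 (filterByExpr with a minimum count of 10, TMM, glmQLFit with legacy = FALSE, glmQLFTest on genotype, Benjamini-Hochberg adjustment at 0.05). Reads off genes were left out of library sizes. Standard errors were computed by dividing the size of the log2 fold change by the root of the F statistic. Coordinates and exonic lengths come from GENCODE M21 (GRCm38, the build of mm10, a later release than that counted on). The replicate numbers of the labels did not pair the libraries. DESeq2 1.42.0, other scalings, filters, edgeR's robust and legacy methods, a replicate block, thinning and the omission of each library served as alternatives, and the test was tested on simulated data. Named genes were the members, their neighbours, and from each list the called genes of largest change (up to 5 per direction) and, for cardiomyocyte genes, those with the most reads, and *Eya1*. Named besides, after their values were seen, were *Gata2*, *Gata3*, *Zfpm2*, genes that were not tested and list genes named to complete a count. Results of some genes are not reported here.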

Additional observations from a re-analysis of the deposited data

How the results depend on the processing

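The count of members called (3 of 8 tested) stayed at 3 with DESeq2's size factors, library totals alone and robust quasi-likelihood. It was 4 with at least 10 counts in every library, where only 5 members were tested, and 5 of 8 with DESeq2's Wald test. It was 1 with the legacy method or after thinning all libraries to equal depth, and 0 without the low-count filter or with a replicate block. The corresponding counts over all genes (1820 of 19041) were 2243 of 14490 with at least 10 counts in every library, 1055 of 31192 without the filter and 3113 of 19535 with DESeq2. They were 1096 with the legacy method, 1186 after thinning and 621 with the replicate block. For the T-box family (4 called) they were 0 without the filter, 1 with the legacy method, 1 after thinning and 0 with the replicate block. For the GATA, Mef2, Irx and Nkx2 families (2) they were 1 with robust quasi-likelihood and 0 without the filter, with the legacy method, after thinning and with the replicate block. The other cardiac regulators (7) had 4 with the replicate block, and the cardiomyocyte effector genes (2) had 1 without the filter, 1 with the legacy method and 1 with the replicate block. When single libraries were omitted, the counts ran from 0 to 7 for the members, 23 to 7925 for all genes, 0 to 6 for the T-box family, 0 to 9 for the GATA, Mef2, Irx and Nkx2 families, 0 to 15 for the regulators and 0 to 8 for the effector genes. Such a fit has a lone library in one genotype, which is assumed to vary like the other genotype, and so takes its spread from the *Eya1*cKO pair where a control is missing and from the control pair where an *Eya1*cKO library is missing.

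The sign of the log2 fold change was kept under every alternative run for *Tbx2*, *Tbx3*, *Tbx5*, *Tbx20*, *Gata6* and *Mef2c*. That of *Irx4* turned to -0.087 with DESeq2's Wald test, -0.094 with the legacy method and -0.20 after thinning, and ran from -3.18 to 0.78 with a library left out (-0.29 without control 1), and that of *Gata4* ran from -7.46 to 2.52. The cause was not tested. Same-numbered libraries did not deviate together (correlation of deviations across the genotypes 0.0062), so the replicate block only adds a term. With 2 libraries per genotype this correlation is the same for both numbers by construction. Without the filter and with DESeq2 the median of all genes was -0.21 and -0.18 in place of 0.016. *Tbx20* and *Gata4* could not be fitted with at least 10 counts in every library, nor could *Irx4*. The *Eya1*cKO libraries differed by more than counting error for every member tested except *Gata6*, whose Poisson intervals overlapped. For *Gata4* the interval of *Eya1*cKO 2 (2.76 to 4.59 CPM) lay above the limit of 3 counts in *Eya1*cKO 1 (0.133 CPM). The intervals of *Eya1*cKO 1 and 2 did not overlap for *Irx4* (2.10 to 3.52 and 0.0353 to 0.500 CPM). Nor did they for *Tbx2* (212.6 to 224.8 and 182.1 to 195.0 CPM), *Tbx3*, *Tbx5*, *Tbx20* or *Mef2c*.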

Other observations

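The tested genes whose pattern over the 4 libraries was most like that of a member were found by the distance between log2 CPM centred on each gene's mean, which describes these libraries only. For *Tbx2* they were *Mical3* (distance 0.018 log2 units) and *Hcfc1r1* (0.038), for *Tbx3* *Runx1t1* (0.027) and *Hagh* (0.039), and for *Mef2c* *Irf2* (0.024) and *Disc1* (0.027). The members with few reads had more distant neighbours. *Tbx5* was nearest to *Oaz3* (0.464) and *Gm37755* (0.467), *Gata4* to *Prkag2os2* (0.419) and *Lpar3* (0.432), and *Irx4* to *Tsg101-ps* (0.138) and *C130036L24Rik* (0.196). No tested gene came closer to *Tbx20* than *Spp1* (1.371) and *Musk* (1.427). *Spp1*, which encodes osteopontin, had 11 and 1 reads in the controls, against 88 and 153 in *Eya1*cKO, and rose (log2 fold change 5.14, SE 1.13, edgeR adjusted *P* = 0.027, not passed without control 1 or control 2).

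Of the remaining marker lists, none of the 7 macrophage markers passed in edgeR or DESeq2 (1 higher and 1 lower at an unadjusted *P* under 0.05), with summed levels from 111 to 132 CPM over the 4 libraries. Neither of the 2 erythroid markers tested passed in edgeR or DESeq2, and 0 did so at an unadjusted *P* under 0.05, with sums from 1.71 to 7.30 CPM. *Des*, which encodes desmin, fell among the 2 skeletal muscle markers tested, with sums of 119 and 129 CPM in the controls against 82.4 and 54.6 CPM, and *Ret* and *Calb1* fell among the 7 ureteric epithelium markers, with sums of 165 and 170 against 106 and 75.0 CPM.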
